A study of Solanum lycopersicum with 12 samples.

Results

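Solyc01g056850.3 and Solyc01g079650.3 are the CTP synthase genes of tomato (Solanum lycopersicum) in these data, 2 of 6043 genes read from the deposited tables and the only 2 there with a CTP synthase name or domain. Both were chosen by the difference between weighted and control stems at 6 h and at 10 days, so those differences are given below as a description and carry no test. RNA was taken from stems of the cultivar Ailsa Craig grown in a greenhouse under long days, in 4 groups of 3 libraries that the labels call biological replicates. In the weighted groups a 3 g wooden clamp hung from the top of stems 4.5 to 5 cm tall, in a treatment that lasted 48 h in full. The control groups were plants of the same genotype labelled as controls. Control and weighted stems were each sampled 6 h after the clamp was put on, as the design text has it (the labels say after treatment), and 10 days after it was taken off. On the design text's reading the weighted stems at 6 h had carried the clamp for 6 h of the 48 h. Age is not given, but the 10 day stems were older. The label that holds the time is called batch, so time, stem age and any batch cannot be told apart. Levels are the authors' FPKM, fragments counted per kilobase of transcript and relative to all mapped fragments of the library.

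CTP synthase makes CTP, the cytidine nucleotide, from UTP, and takes the amino group from glutamine. It is the last step of pyrimidine nucleotide synthesis, and CTP then serves RNA synthesis, DNA synthesis after reduction, and the activation of head groups and lipid precursors for membrane phospholipids. Plants carry several CTP synthase genes, and the enzyme can assemble into filaments in many organisms. The deposited annotation gives both genes the same parts, a CTP synthase N-terminal domain, which makes CTP from UTP with the use of ATP, and a class I glutamine amidotransferase domain, which releases ammonia from glutamine.

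Solyc01g056850.3 was higher in weighted stems at both times, while Solyc01g079650.3 was lower in weighted stems at 6 h and higher at 10 days. In control stems at 6 h Solyc01g056850.3 stood at 5.58, 4.16 and 8.85 FPKM in replicates 1, 2 and 3, and in weighted stems at 6 h at 16.36, 16.02 and 15.09 FPKM. The control libraries spread widely and all lay below the weighted ones, which were close to each other. At 10 days it stood at 14.55, 14.56 and 10.22 FPKM in control stems and at 23.99, 22.81 and 18.77 FPKM in weighted stems. The groups did not overlap here either, and replicate 3 was the lowest of its group in both.

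Solyc01g079650.3 stood at 11.8, 12.99 and 12.71 FPKM in control stems at 6 h and at 7.88, 8.42 and 7 FPKM in weighted stems at 6 h. At this time every weighted library lay below every control library. At 10 days its levels were 23.84, 19.59 and 22.95 FPKM in control stems and 38.85, 34.7 and 33.06 FPKM in weighted stems. Here every weighted library lay above every control library. Of the 347 genes tested at both times, 114 (32.9%) had groups apart at each time and in opposite directions, as Solyc01g079650.3 did. How many of all genes separated at a given time in either direction, as both CTP synthase genes did, was not counted. The authors had limited the tables to differing genes, so the separation is not read as particular to these genes.

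**Figure D1:**
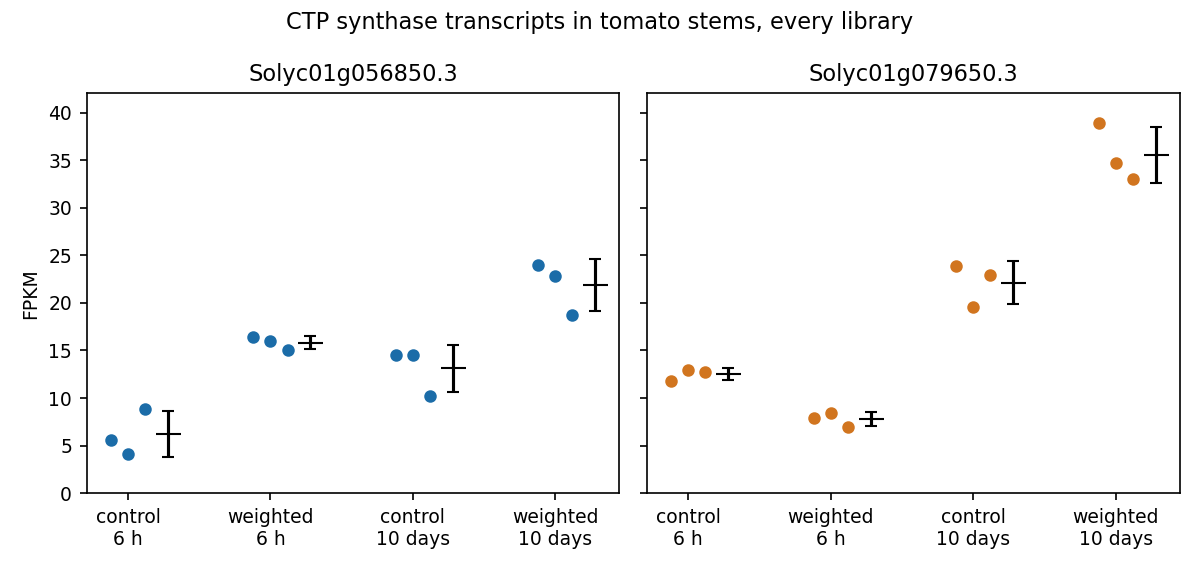
FPKM (y axis, from 0) of the 2 CTP synthase genes in the 4 groups (x axis); each point is 1 library, and the bar beside the points is the mean ± SD (n = 3). The weighted libraries of Solyc01g056850.3 lie above the control ones at both times, while those of Solyc01g079650.3 lie below at 6 h (7 to 8.42 against 11.8 to 12.99 FPKM) and above at 10 days.

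The mean of Solyc01g056850.3 at 6 h was 6.20 ± 2.41 FPKM (SD, n = 3) in control and 15.8 ± 0.657 FPKM in weighted stems, a ratio of means of 2.55 and a log2 fold change of 1.28 (SE 0.22) on the scale of log2(FPKM + 1) used throughout. At 10 days the means were 13.1 ± 2.50 and 21.9 ± 2.74 FPKM, a ratio of 1.67 and a log2 fold change of 0.71 (SE 0.16). For Solyc01g079650.3 the means at 6 h were 12.5 ± 0.622 and 7.77 ± 0.717 FPKM, a ratio of 0.621 and a log2 fold change of -0.63 (SE 0.10). At 10 days they were 22.1 ± 2.24 and 35.5 ± 2.98 FPKM, a ratio of 1.61 and a log2 fold change of 0.66 (SE 0.11). The log2 fold changes of the 2 genes were thus of opposite sign at 6 h and of like sign and near in size at 10 days. Library scaling moved the size at 10 days. It was 0.98 and 0.95 after the libraries were set to equal totals, and 0.50 and 0.45 after scaling by median ratios, for Solyc01g056850.3 and Solyc01g079650.3 in that order. No scaling changed a sign.

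The authors' deposited table gives log2 ratios of 0.697 for Solyc01g056850.3 and 0.652 for Solyc01g079650.3 between weighted and control stems at 10 days, and of -0.719 for Solyc01g079650.3 at 6 h. The 6 h ratio of Solyc01g056850.3 could not be read there. In stems as a whole, fewer cells of a type that makes a transcript and less of it per cell cannot be told apart. How reads that map to both paralogues were counted is not given in the sources used here, so reads could be split between the genes and their single values carry that uncertainty.

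These weight effects belong to tables that the authors had already limited to differing genes. At 6 h 4939 genes were tested with limma, a linear model with a shared estimate of spread, and 99.3% were called at a Benjamini-Hochberg adjusted p under 0.05, with 48.3% higher and 51.0% lower in weighted stems. At 10 days 1114 genes were tested and 99.7% were called, 51.8% higher and 47.9% lower. After scaling to equal totals 77.6% of the genes called at 10 days were higher, against 51.9% of those called without scaling. The median log2 fold change over all genes tested was -0.25 at 6 h and 0.35 at 10 days, and equal totals moved the latter by 0.27 and median ratios by -0.21. Among the 347 genes tested at both times, 109 (31.4%) were higher in weighted stems at both, as was Solyc01g056850.3. Lower at 6 h and higher at 10 days, as for Solyc01g079650.3, were 74 genes (21.3%). Another 119 (34.3%) were lower at both times, and 45 were higher and then lower.

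Both CTP synthase transcripts were higher at 10 days than at 6 h. This difference, averaged over control and weighted stems, does not depend on the weight effects that chose the genes and was tested. The log2 fold change was 0.72 (SE 0.15, limma adjusted p = 0.000983) for Solyc01g056850.3 and 1.42 (SE 0.08, limma adjusted p = 1.86e-08) for Solyc01g079650.3. Each library at 10 days lay above each library of the same treatment at 6 h, for both genes. The share of all genes that separated likewise was not counted. Of the 5804 genes tested for time 81.6% were called, 34.9% higher and 46.7% lower at 10 days, with a median log2 fold change of -0.16. Median ratios and quantile normalization moved that median by 0.11 and 0.12, and under median ratios the time effects of the 2 genes were 0.84 and 1.53.

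Within each treatment the difference with time was uneven. In control stems the mean of Solyc01g056850.3 was 2.12 times as high at 10 days as at 6 h, and that of Solyc01g079650.3 was 1.77 times as high. In weighted stems the ratios were 1.38 and 4.58. The control stems alone thus carried more of both transcripts at the later time. The authors' deposited table gives log2 ratios with time in control stems of 0.950 and 0.687 for the 2 genes and of 0.351 in weighted stems for Solyc01g056850.3. Across genes the ratios computed from FPKM were above the authors' by a median of 0.134 in control and 0.120 in weighted stems for time, and by 0.030 and 0.038 for weight at 6 h and 10 days.

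In the order of its levels Solyc01g056850.3 went from control stems at 6 h through control stems at 10 days and weighted stems at 6 h to weighted stems at 10 days, with each mean 2.12, 1.21 and 1.38 times the one before. The libraries of neighbouring groups did not overlap, although the highest control library at 10 days (14.56 FPKM) was close to the lowest weighted library at 6 h (15.09 FPKM). The order for Solyc01g079650.3 was weighted stems at 6 h, control stems at 6 h, control stems at 10 days and weighted stems at 10 days, with steps of 1.61, 1.77 and 1.61. No neighbours in that order overlapped, and how often other genes separate like this was not counted. The genes shared the group in which they were highest and differed in the group in which they were lowest.

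FPKM is scaled to transcript length, so the levels of the genes can be set beside each other and added. Any CTP synthase gene left out when the authors limited the data to differing genes would be missing from the sum. The sum was 17.38, 17.15 and 21.56 FPKM in control stems at 6 h and 24.24, 24.44 and 22.09 FPKM in weighted stems at 6 h. At 10 days it was 38.39, 34.15 and 33.17 FPKM in control and 62.84, 57.51 and 51.83 FPKM in weighted stems. Weighted libraries had the higher sum at both times, without overlap, by a ratio of means of 1.26 at 6 h (23.6 ± 1.30 against 18.7 ± 2.48 FPKM, SD, n = 3) and of 1.63 at 10 days (57.4 ± 5.51 against 35.2 ± 2.77 FPKM). These differences of the sum follow from the contrasts that chose the genes and were not tested.

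The make-up of that sum stood apart in one group. Solyc01g056850.3 gave 32.5 ± 8.40% of the sum (SD, n = 3) in control stems at 6 h, 67.1 ± 1.42% in weighted stems at 6 h, 37.1 ± 5.95% in control stems at 10 days and 38.0 ± 1.73% in weighted stems at 10 days. The 3 weighted libraries at 6 h lay between 65.5% and 68.3%, and the highest library of any other group was at 42.6%. The mean log2 ratio of Solyc01g056850.3 to Solyc01g079650.3 was -1.08 in control stems and 1.03 in weighted stems at 6 h, and -0.77 and -0.71 at 10 days. These values follow from the contrasts that chose the genes and are given without a test. They also carry the uncertainty from reads that map to both paralogues.

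**Figure D2:**
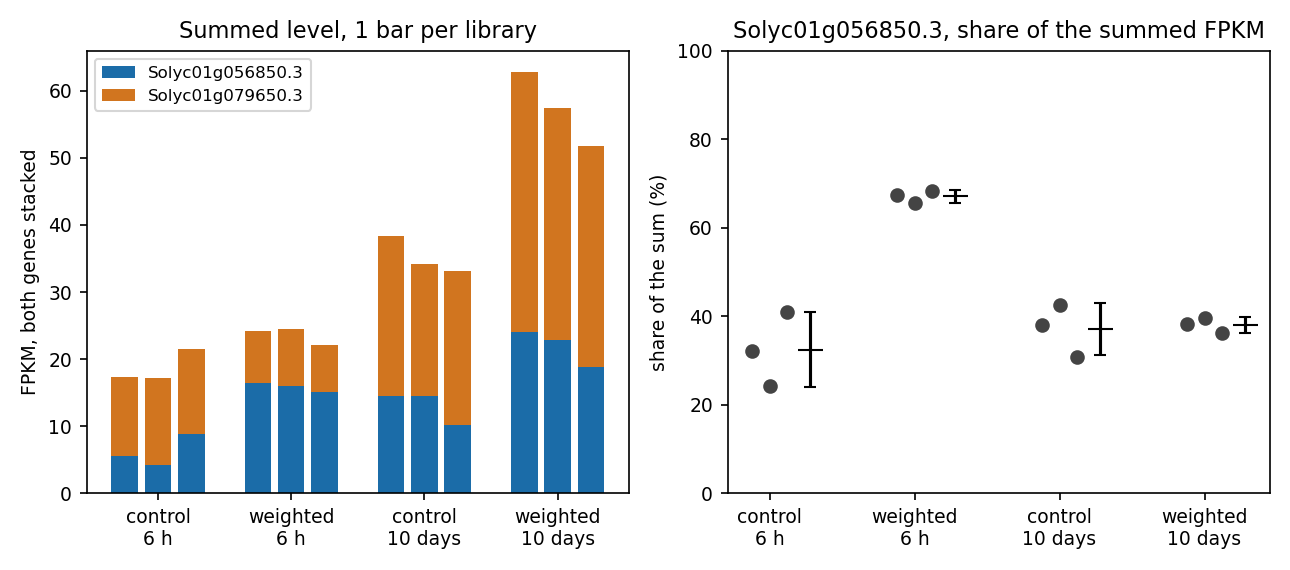
Left, FPKM of both CTP synthase genes stacked (y axis), 1 bar per library, in the 4 groups (x axis). Right, the share of the summed FPKM that came from Solyc01g056850.3 (y axis, %), 1 point per library with the mean ± SD (n = 3) beside; the weighted libraries at 6 h lie between 65.5% and 68.3% and all others at 42.6% or below.

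Tests that average over treatment gave no call for the ratio. Averaged over the treatments, the log2 ratio of Solyc01g056850.3 to Solyc01g079650.3 differed by -0.71 between 10 days and 6 h (12 libraries, exact two-sided permutation of times within treatments, p = 0.085, smallest possible 0.005). The treatments went opposite ways, so this average describes neither. The mean ratio rose from -1.08 to -0.77 in control stems and fell from 1.03 to -0.71 in weighted stems. Over all 12 libraries the mean log2 ratio was -0.38, that is, Solyc01g079650.3 had the higher level on average (exact two-sided sign-flip permutation, p = 0.170, smallest possible 0.000488). The flips treated the libraries as independent, although they came in 4 groups with unlike mean ratios. This p-value therefore mixes group differences with replicate spread and cannot settle a difference in level between the genes. Of the 12 libraries 9 had more of Solyc01g079650.3 and the 3 with more of Solyc01g056850.3 were the weighted ones at 6 h.

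Within groups the levels of the genes showed no detectable relation. Deviations of log2(FPKM + 1) from the group mean ran from -0.43 to 0.50 for Solyc01g056850.3, with both ends in control stems at 6 h, and from -0.16 to 0.13 for Solyc01g079650.3. Across the 12 libraries they correlated with a Pearson r of 0.058 (exact permutation within groups, p = 0.870) and a Spearman rho of 0.063 (exact permutation, p = 0.845). Adjusted over these 2 relations, both p-values were 0.870. Without the 2 libraries farthest from the median, control replicates 2 and 3 at 6 h, r was 0.169.

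**Figure D3:**
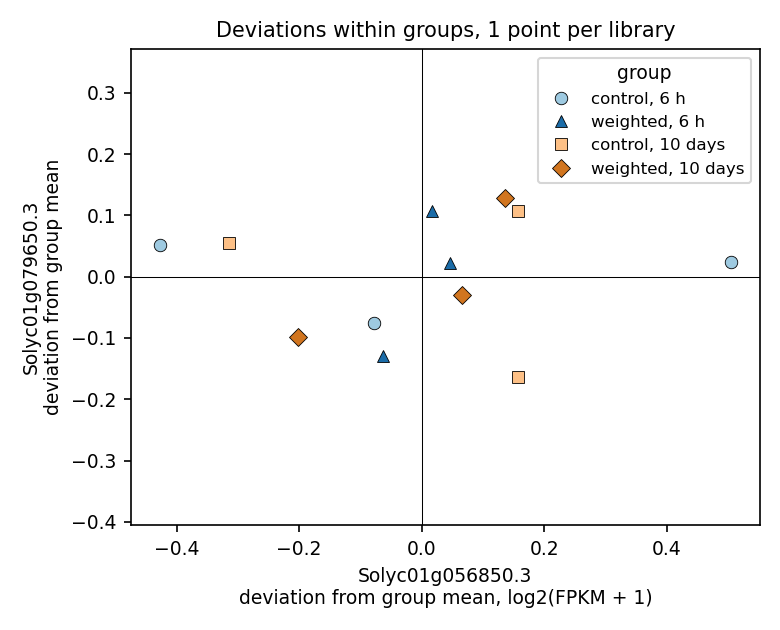
Deviation of log2(FPKM + 1) from its group mean for Solyc01g056850.3 (x axis) and Solyc01g079650.3 (y axis), 1 point per library with the group as shape and colour. The points show no common trend (Pearson r of 0.058), and the 2 farthest to the left and right, at -0.43 and 0.50, are control libraries at 6 h.

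Of 26 other genes that the deposited annotation places in the KEGG pyrimidine pathway 23 were tested at 6 h, where 7 rose and 16 fell in weighted stems and the median log2 fold change was -0.46, beside -0.25 over all genes tested, of which 48.3% were called higher and 51.0% lower. At 10 days 6 were tested, of which 4 rose and 2 fell, with a median of 0.56, beside 0.35 over all genes tested, of which 51.8% were called higher and 47.9% lower. With equal totals 4 rose and 0 fell at 10 days, beside 578 called higher and 167 lower of all 1111 genes tested with that scaling. With time 7 were higher at 10 days, 16 were lower and 3 were not called, out of 26. Over all genes tested for time 34.9% were called higher and 46.7% lower. The share called for weight, in either direction, is near that of the tables as a whole, which the authors had limited to differing genes. This list was set up after the tables had been seen, and its difference from other genes was not tested. Among its largest changes, an apyrase (Solyc12g098540.2), an enzyme that removes phosphates from nucleotides, fell from 38.0 ± 2.58 to 11.1 ± 5.59 FPKM at 6 h (log2 fold change -1.79). An unnamed gene with a DMP domain (Solyc02g077640.1) fell by 1.12 on the log2 scale, and at 10 days an unnamed gene with a domain of unknown function (Solyc01g010520.3) rose by 0.58.

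**Figure D4:**
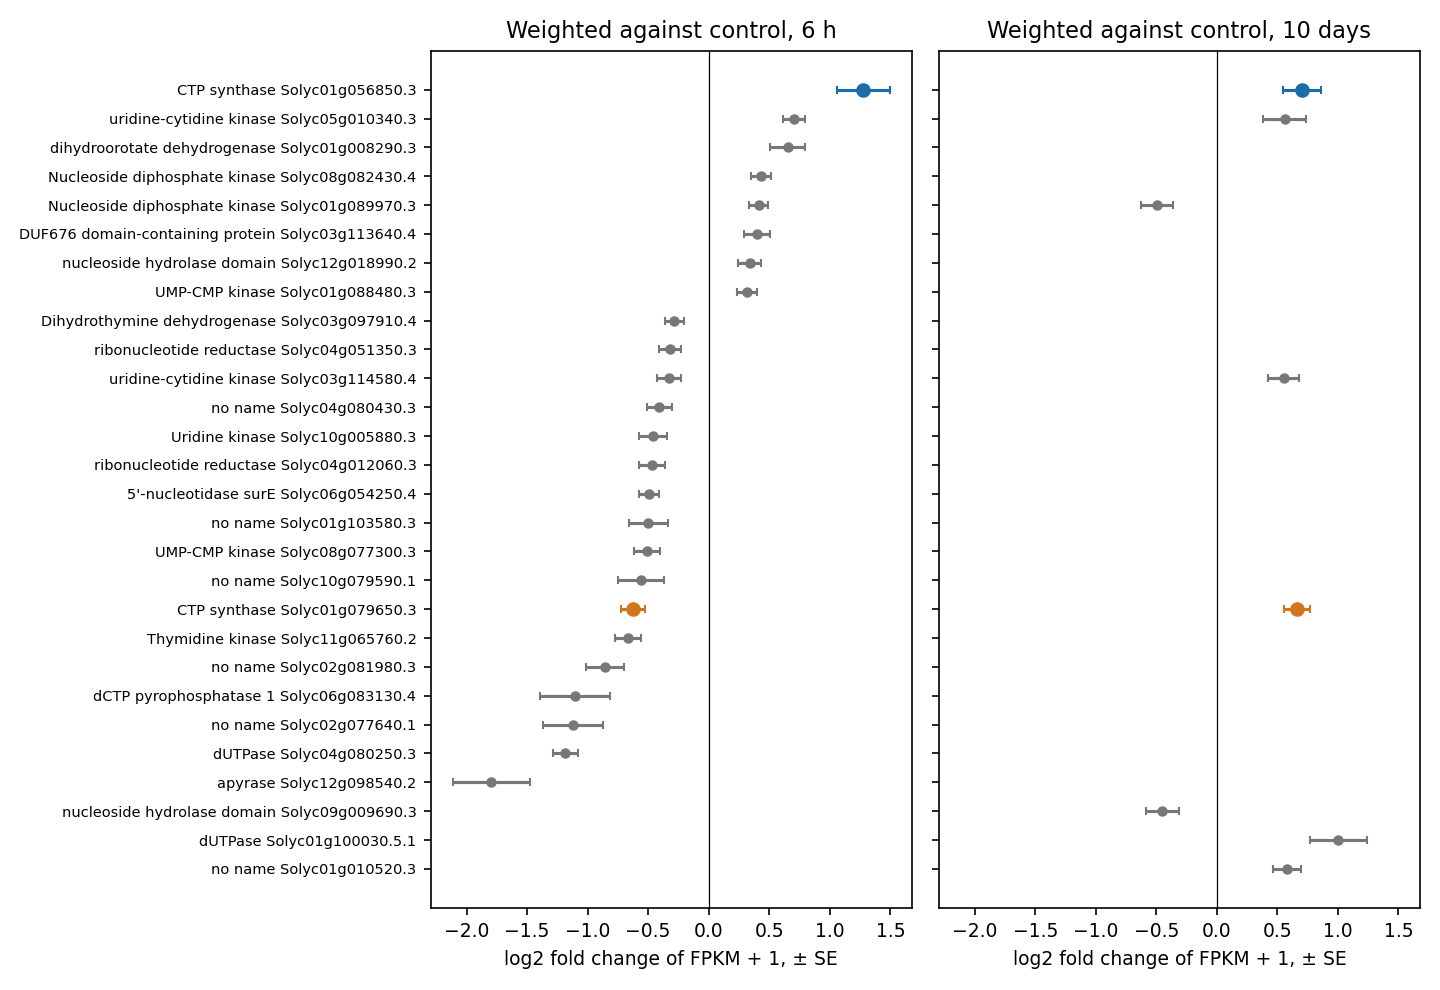
Log2 fold change of FPKM + 1 between weighted and control stems (x axis, points with SE, n = 3 per group) at 6 h (left) and 10 days (right) for the 2 CTP synthase genes (blue and orange) and 26 other genes of the KEGG pyrimidine pathway (grey), 1 gene per line; a gene without a point was not in the table of that time. At 6 h Solyc01g056850.3 lies at 1.28 and Solyc01g079650.3 at -0.63, and at 10 days they lie at 0.71 and 0.66.

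Upstream of UTP, the list of pyrimidine de novo synthesis held 4 genes, all tested at 6 h, where 2 rose, 1 fell and 1 was not called. Over all genes tested at 6 h 48.3% were called higher and 51.0% lower. Solyc03g115640.3, whose domains are those of the small subunit of carbamoyl-phosphate synthase, the enzyme that opens the pathway with glutamine as the nitrogen donor, rose from 78.1 ± 8.74 to 209 ± 32.4 FPKM (SD, n = 3; log2 fold change 1.40, SE 0.14, limma adjusted p = 0.000425). Dihydroorotate dehydrogenase (Solyc01g008290.3), which oxidises dihydroorotate to orotate, rose from 21.3 ± 4.31 to 33.7 ± 2.08 FPKM (log2 fold change 0.65). Both were lower at 10 days than at 6 h, with log2 fold changes with time of -1.78 and -0.88, opposite in sign to those of the CTP synthase genes. The other 2 genes entered the list through a shared domain. Dihydrothymine dehydrogenase (Solyc03g097910.4), which breaks pyrimidines down and was also the 1 gene of the breakdown list, fell by 0.28 on the log2 scale. Acetyl-CoA carboxylase (Solyc12g056940.2), an enzyme of fatty acid synthesis, had a log2 fold change of -0.20 (limma adjusted p = 0.0589). No gene of this list was in the 10 day table.

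Of the 19 genes tested at 6 h in the list of pyrimidine kinases and salvage 7 rose and 12 fell, their median log2 fold change being -0.46, and of 8 tested at 10 days 5 rose and 3 fell, with a median of 0.50. With equal totals 5 rose and 0 fell at 10 days, with a median of 0.72. That scaling called 578 higher and 167 lower of all 1111 genes tested, with a median of 0.62. With time 7 of 24 were higher, 14 lower and 3 not called. Over all genes tested 48.3% were called higher and 51.0% lower at 6 h, 51.8% and 47.9% at 10 days, and 34.9% and 46.7% with time. The pattern behind this list also took in amino acid and adenylate kinases. The largest changes it named at 6 h were of an aspartokinase (Solyc06g064550.3, -1.64), which opens the synthesis of lysine, threonine and methionine, a dUTPase (Solyc04g080250.3, -1.18), described below, and an adenylate kinase (Solyc02g093990.4, -0.96), which interconverts AMP, ADP and ATP. At 10 days they were of another dUTPase (Solyc01g100030.5.1, 1.004), a pyrroline-5-carboxylate synthase (Solyc06g019170.3, 0.82), an enzyme of proline synthesis, and a uridine-cytidine kinase (Solyc05g010340.3, 0.56).

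The kinases that lead to UTP and CTP were chosen for naming after their values were seen. UMP-CMP kinase adds the second phosphate to UMP and CMP, and its 2 genes went opposite ways at 6 h. Solyc01g088480.3 rose from 169 ± 2.73 to 211 ± 15.9 FPKM (log2 fold change 0.32) and Solyc08g077300.3 fell from 20.8 ± 2.15 to 14.3 ± 1.02 FPKM (-0.51). With time Solyc08g077300.3 was higher at 10 days, by 1.72 on the log2 scale. Nucleoside diphosphate kinase adds the third phosphate. Solyc01g089970.3, at 621 ± 30.4 FPKM in control stems at 6 h, rose at 6 h (0.41) and fell at 10 days (-0.49), and Solyc08g082430.4 rose at 6 h (0.43). The fall of Solyc01g089970.3 at 10 days was not called with equal totals (-0.20) or quantile normalization (-0.13), nor was its rise at 6 h with quantile normalization (0.19).

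Uridine-cytidine kinase returns uridine and cytidine to the nucleotide pool. Solyc03g114580.4 fell from 5.58 ± 0.335 to 4.25 ± 0.347 FPKM at 6 h (log2 fold change -0.33) and rose from 14.6 ± 2.46 to 21.7 ± 1.21 FPKM at 10 days (0.55), and it was higher at 10 days than at 6 h by 1.67 on the log2 scale. It was thus lower at 6 h and higher at 10 days in weighted stems, as was Solyc01g079650.3. Solyc05g010340.3 rose at both times (0.70 and 0.56), as Solyc01g056850.3 was higher at both, although from levels of 1.15 ± 0.0513 and 0.700 ± 0.123 FPKM in control stems. The fall of Solyc03g114580.4 at 6 h was not called with quantile normalization (-0.22). Both kinases were described after their values were seen, and nothing was tested between them and the CTP synthase genes.

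The deoxynucleotide list had 6 genes tested at 6 h, of which 5 fell and 1 rose, and its median log2 fold change was -0.39. Over all genes tested at 6 h 51.0% were called lower and 48.3% higher, with a median of -0.25. The difference of the list from other genes was not tested. A dUTPase (Solyc04g080250.3), which keeps uracil out of DNA, fell from 2.31 ± 0.0781 to 0.460 ± 0.0985 FPKM (-1.18). A dCTP pyrophosphatase (Solyc06g083130.4), which removes dCTP, fell by 1.10, and a ribonucleotide reductase (Solyc04g012060.3), which makes the deoxynucleotides, fell by 0.47. The gene that rose was an acyl-carrier-protein desaturase (Solyc03g063110.3), an enzyme of fatty acid desaturation that entered by a shared fold, and another of these was among those that fell. At 10 days 1 gene was tested, the dUTPase Solyc01g100030.5.1, which rose from 13.5 ± 5.18 to 27.1 ± 3.50 FPKM. With time 2 of 7 were higher and 5 lower, with a median of -1.12, beside 34.9% called higher and 46.7% lower over all genes tested.

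Of the CTP-using enzymes looked for 2 genes were found. A gene with the domain of the enzyme that uses CTP in the plastid isoprenoid pathway (Solyc01g102820.4) fell by 0.27 at 6 h, which was not called with median ratios (-0.22). The other, a nicotinamide-nucleotide adenylyltransferase (Solyc07g065590.4), which uses ATP and entered by a shared domain, fell by 0.37 at 10 days, which was not called with equal totals (-0.11). With time the first was lower (-0.56) and the second higher (0.80).

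Glutamine is the other substrate of CTP synthase. Of 12 tested genes of glutamine supply and glutamine amidotransferases 4 rose and 8 fell at 6 h, and the median log2 fold change was -0.42. The largest changes were the rise of Solyc03g115640.3, given above, and the fall of a glutamine synthetase (Solyc01g080280.3), which makes glutamine from glutamate and ammonia, from 409 ± 33.4 to 190 ± 5.44 FPKM (-1.10). An amino-acid N-acetyltransferase (Solyc03g043950.4) fell by 0.85. At 10 days 1 gene was tested, NADH-dependent glutamate synthase (Solyc03g083440.4), which turns glutamine back into glutamate. It fell from 98.2 ± 11.6 to 57.8 ± 9.44 FPKM at 6 h (-0.76) and rose from 22.6 ± 5.47 to 41.0 ± 4.74 FPKM at 10 days (0.85). With time 3 of 12 were higher, 8 lower and 1 not called. Over all genes tested 48.3% were called higher and 51.0% lower at 6 h, and 34.9% and 46.7% with time.

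Nucleotide carriers and purine synthesis were split. Of 8 tested transporter genes 5 rose and 3 fell at 6 h, with a median of 0.42. An equilibrative nucleoside transporter (Solyc02g079330.3) fell by 0.92, with overlap between the groups. A plastidic ATP/ADP transporter (Solyc12g042950.2) rose by 0.84 and a UDP-galactose transporter (Solyc05g007150.4) by 0.78. Of 11 tested genes of purine synthesis, a list that also took in both UMP-CMP kinases, 6 rose and 5 fell, with a median of 0.32. A ribose-phosphate diphosphokinase (Solyc06g061040.4), which makes the activated ribose for both purines and pyrimidines, fell by 1.02, the adenylate kinase Solyc02g093990.4 by 0.96 and an AMP phosphotransferase (Solyc12g010380.3) by 0.89. No gene of either list was in the 10 day table. With time 2 of 8 transporters and 2 of 11 purine genes were higher, 5 and 6 were lower, and 1 and 3 were not called. Over all the nucleotide lists, with each gene counted once, 23 of 60 rose and 36 fell at 6 h, 7 of 11 rose and 4 fell at 10 days, and 19 of 67 were higher and 39 lower with time. With equal totals 7 rose and 0 fell at 10 days, beside 578 called higher and 167 lower of all 1111 genes tested with that scaling. The shares that follow are without scaling. Over all genes tested 48.3% were called higher and 51.0% lower at 6 h, 51.8% and 47.9% at 10 days, and 34.9% and 46.7% with time.

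Over the 12 libraries the levels of the 2 CTP synthase genes correlated with each other at a Pearson r of 0.41 on the log2 scale, which left 1302 of 5803 ranked genes closer to Solyc01g056850.3 than its paralogue. The points of this and the following correlations share their libraries and the 4 groups, and they are given as a description. The 5 genes most like Solyc01g056850.3 were a class II DAHP synthase (Solyc04g074480.3, r of 0.977), the entry to aromatic amino acid synthesis, an unnamed gene with AP2 and SAC domains (Solyc03g123500.4, 0.954), signal peptidase I (Solyc12g006540.2, 0.939), a gene of the ARGOS family (Solyc12g096570.1, 0.938), whose members promote organ growth in Arabidopsis, and the kinesin NACK2 (Solyc02g084390.3, 0.931), of a kinesin class that acts in cell plate formation in tobacco. Their sizes of change differed widely. The ARGOS gene went from 13.2 FPKM in control to 68.0 in weighted stems at 6 h and from 41.7 to 86.4 at 10 days, while the DAHP synthase went from 380 to 486 and from 436 to 531. The 3 least like it were photosystem I genes PsaO (Solyc06g074200.4, -0.956) and subunit V (Solyc06g082940.3, -0.953), both of the photosynthetic light reactions, and a plastid fibrillin (Solyc08g006160.4, -0.950).

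The 5 genes most like Solyc01g079650.3 were a MAP65 gene (Solyc05g015320.3, 0.986), whose family bundles microtubules, alpha-glucosidase 2 (Solyc08g075530.3, 0.985), a Vps18 gene of vacuolar sorting (Solyc06g005080.4, 0.985), a glycosyltransferase (Solyc12g042600.2, 0.984) and the P protein of glycine cleavage (Solyc08g065220.3, 0.984), an enzyme of photorespiration. The MAP65 gene had group means of 7.57 and 4.13 FPKM in control and weighted stems at 6 h and of 21.8 and 31.3 FPKM at 10 days. The 3 least like it were a UDP-glucosyltransferase (Solyc06g082300.4, -0.983), a gene of the RETICULATA-related family (Solyc06g050620.3, -0.979) and the ribosomal protein S15 gene (Solyc06g053820.4, -0.978). The lists of the 2 paralogues had no gene in common.

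**Figure D5:**
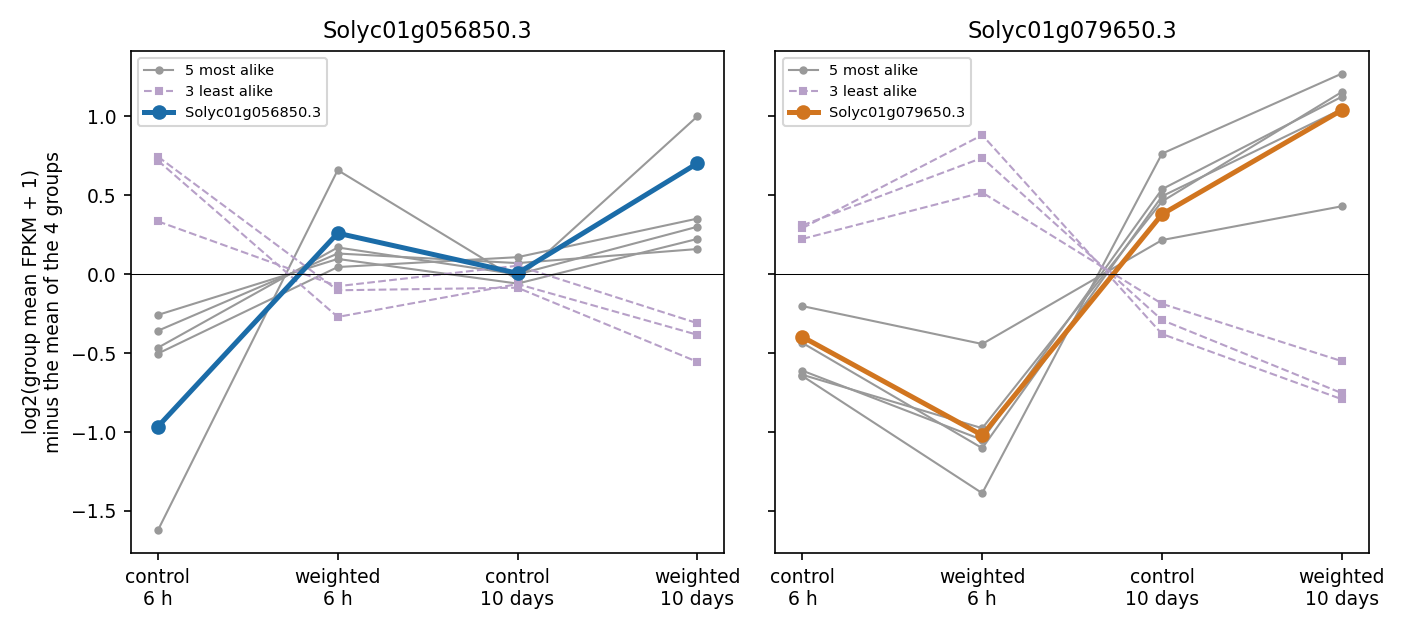
Log2 of the group mean FPKM + 1 minus the mean of the 4 groups (y axis) across the groups (x axis), for each CTP synthase gene (thick line), the 5 genes most like it (grey) and the 3 least like it (dashed). Genes like Solyc01g056850.3 were lowest in control stems at 6 h, and genes like Solyc01g079650.3 were lowest in weighted stems at 6 h.

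Markers of the tissue moved with the groups. Of 32 genes of a stem list, mostly chlorophyll a-b binding proteins and laccases, 0 were at 0 in all libraries of a group, and their summed FPKM ran from 4888 to 7472 in control and from 2338 to 2700 in weighted stems at 6 h, and from 5261 to 5620 and from 4453 to 5258 at 10 days. At 6 h 2 of 28 tested rose and 26 fell, led by 3 genes named chlorophyll a-b binding protein 1B (Solyc02g070950.1, -3.23, Solyc02g070970.1, -3.21, and Solyc02g070980.1, -3.10). These 3 genes may share reads, and their sequences were not compared. At 10 days 2 of 5 rose and 3 fell (1 of the 3 was not called with equal totals, Solyc12g011280.2 at -0.07), among them chlorophyll a-b binding protein 13 (Solyc12g011450.2, -0.80), a laccase (Solyc09g014240.4, 0.73) and a homeobox-leucine zipper gene (Solyc12g044410.2, 0.63). A flower and pollen list of 21 genes, mostly expansins, which loosen cell walls in growing tissue of any kind, summed to between 957 and 1051 in control and between 1413 and 1545 in weighted stems at 6 h, and to between 658 and 895 and between 622 and 688 at 10 days, with 0, 1, 2 and 1 genes at 0 in all libraries of these 4 groups in that order. Of 18 tested at 6 h 13 rose and 4 fell, led by the expansins Solyc03g093390.4 (2.98), Solyc04g081870.4 (2.87) and Solyc06g049050.3 (2.23), and both tested at 10 days fell (Solyc10g054673.1, -0.67, and Solyc03g031840.3, -0.60), the latter not called with equal totals (-0.30). Beside these counts, 48.3% of all genes tested were called higher and 51.0% lower at 6 h, and 51.8% and 47.9% at 10 days. The part of the marker changes in the levels of the CTP synthase genes was not tested.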

How the data were processed

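The authors deposited FPKM per library in 2 tables, each with all 12 libraries and limited to genes that differed at 1 time, together with log2 ratios of their own. Per the labels' protocols reads were aligned with HISAT to a genome and with Bowtie2 to reference genes. For versions, build and the counting of shared reads the entry is: not given in the sources used here. Read depth is unknown. The 6 h table had tabs in place of decimal points and the reverse, which was undone by script, and 89 of its 5346 genes were left out. For 87 of them the digits stayed unclear, and 2 went against the authors' log2 ratios. These ratios also served to check the reading, a check made after those 2 genes were left out. For genes in both tables the values of the 10 day table were used for printed FPKM and for the time effect. The weight effect at 6 h was fitted on the values of the 6 h table. Of 4320 values of shared genes 60 differed between the tables by more than 0.005 FPKM, the largest by 0.81. The tables' values were equal within 0.005 FPKM for the 2 CTP synthase genes.

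Values were analysed as log2(FPKM + 1) with limma 3.58.1 in R 4.3.3 (empirical Bayes with trend, two-sided, Benjamini-Hochberg adjusted p under 0.05), tested on simulated data, keeping genes that reached 1 FPKM in 3 or more libraries. Weight effects were fitted in the 6 libraries of each time over that time's table, and time over both tables joined. Ratios and deviations were tested with exact permutations over libraries. Tables and figures came from Python 3.11.15 with numpy 2.4.6, pandas 2.3.3 and matplotlib 3.10.9. Alternatives were pseudocounts of 0.1 and 0.5, other filters, 3 scalings, array weights, a robust fit, the other table's values, a replicate block and leaving out each library.

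The genes, the 10 lists and the tests were chosen with earlier results of these data known, and the KEGG list was added after the tables had been seen. The rule for naming took all genes of a list with 6 or fewer, otherwise the 3 with the largest absolute log2 fold change at each time, and for likeness the 5 highest and 3 lowest correlations. Of the identifiers of the 2 genes 0 were found in the reference table at hand, and positions and sequences are therefore not used here.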

Additional observations from a re-analysis of the deposited data

Results flagged for a closer look

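Of the 2 CTP synthase genes and the 4 listed genes of nucleotide metabolism tested at both times, 1 and 3 had every weighted library on one side of every control library at 6 h and on the opposite side at 10 days. Over all 347 genes tested at both times 114 (32.9%) did so. Listed genes present in the table of 1 time only were not counted, although 10 of 68 listed genes of either table showed such a reversal in their FPKM. The difference between the times was not tested. Solyc01g079650.3, a CTP synthase gene, had a log2 fold change of -0.63 at 6 h and 0.66 at 10 days, a reversal that was part of how it was chosen. The nucleoside diphosphate kinase Solyc01g089970.3 had 0.41 and -0.49, of which the second was not called with equal totals and neither was with quantile normalization. The uridine-cytidine kinase Solyc03g114580.4 had -0.33 and 0.55, of which the first was not called with quantile normalization. The NADH-dependent glutamate synthase Solyc03g083440.4 had -0.76 and 0.85. Groups of 3 libraries are too small to look for a library apart from its group.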

How the results depend on the processing

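Of 189 values recomputed for 12 results, 181 were judged the same. Effects and correlations had to keep their direction and their side of the threshold or, where no test applied, stay within 1 SD. Counts of genes called only had to stay within a set ratio of the main count. Thus 4175 and 5143 genes called for time passed beside 4735. The values not judged the same concern the weight effects at 10 days and the correlation of deviations. With equal library totals the weight effects at 10 days were 0.98 (Solyc01g056850.3) and 0.95 (Solyc01g079650.3), and with median ratios 0.45 (Solyc01g079650.3). Of the listed genes 7 were called at 10 days with equal totals in place of 11. Scalings were computed over the preselected genes of a table, and the cause was not tested. The correlation of deviations ran from -0.061 to 0.27 with each library left out, so its sign depends on single libraries. Leaving out single libraries gave weight effects of 1.06 to 1.53 and -0.68 to -0.56 at 6 h and of 0.55 to 0.81 and 0.58 to 0.72 at 10 days for Solyc01g056850.3 and Solyc01g079650.3. Time effects ran from 0.61 to 0.85 (limma adjusted p from 7.88e-05 to 0.00334) and from 1.38 to 1.46 over these libraries.

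Whether the replicate numbers pair the libraries could not be settled with 3 libraries per group. Same-numbered control and weighted libraries deviated together with r of -0.36, -0.29 and -0.04 at 6 h and of -0.16, 0.32 and 0.17 at 10 days. With the replicate number as a block the time effects were 0.72 (limma adjusted p = 0.00285) and 1.42 (limma adjusted p = 4.25e-07), and 52 listed genes were called at 6 h and 11 at 10 days in place of 59 and 11. The block also changed the SE of the weight effects of Solyc01g056850.3 and Solyc01g079650.3. At 10 days the SE was 0.087 and 0.090 with the block, against 0.16 and 0.11 without. At 6 h the SE was 0.21 and 0.12 with the block, against 0.22 and 0.10 without. Depth is unknown, so counting error could not be set beside the spread of low values. Values of the 6 h table can have lost a decimal zero.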
